A study of Mus musculus with 16 samples.

Results

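The class I odorant receptors described here are the genes of the chromosome 7 cluster whose array symbol is Olfr followed by a number between 543 and 691. The range holds 111 of the 1080 odorant receptor genes measured, and the array names 19505 genes in all. Each of the 111 has 1 probe set, and RefSeq places every one of them on chromosome 7.

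All libraries came from olfactory mucosa of S100a5-tauGFP mice on C57BL/6, a reporter line in which GFP marks cells that express S100a5, and no group lacked the reporter. The 24 mice, aged between 7 and 12 weeks and of both sexes, stayed in chambers of clean air for 40 h at 3.1 L/min. From 26 h on they received isoamyl acetate, a banana-scented ester, or filtered air as the vehicle, in pulses of 10 s every 20 min. Cells of 8 pools of 3 mice were sorted by fluorescence, and every pool yielded both a titled GFP+ and a titled GFP- library, so the 4 groups of 4 libraries are odor titled GFP+, odor titled GFP-, vehicle titled GFP+ and vehicle titled GFP-. All values are log2 signals of an expression array, on which a difference of 1 is a factor of 2.

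The titles and the cell type field of the labels give opposite GFP signs in all 16 samples. S100a5 averaged 15.49 in odor titled GFP+ and 16.75 in odor titled GFP- libraries, and 15.21 in vehicle titled GFP+, against 16.39 in vehicle titled GFP- libraries. It was higher in the library titled GFP- in 8 of 8 pools. In this reporter line the S100a5 level thus goes with the cell type field and not with the titles. Of 7 measured activity-dependent neuron genes, S100a5 among them, 6 were called lower in libraries titled GFP+ with odor and 5 with vehicle. In each treatment 0 of the 7 were called higher there. Every sort difference below is titled GFP+ minus titled GFP-, and each direction turns round if the cell type field is the right one. The libraries titled GFP+ also held more RNA of other cells. All 15 measured neutrophil and macrophage markers were called higher there in both treatments, with library means between 11.71 and 13.32 in odor titled GFP+ and between 5.73 and 6.98 in odor titled GFP- libraries. So were 8 of 9 sustentacular, 5 of 5 progenitor and 6 of 6 microvillar cell markers. Of 15 immature neuron markers, 8 were called higher and 0 lower with odor, and 10 higher and 1 lower with vehicle. The 20 mature neuron markers averaged between 14.84 and 15.18 in odor titled GFP+ and between 15.33 and 15.39 in odor titled GFP- libraries. Their ranges were 15.09 to 15.19 in vehicle titled GFP+, against 15.30 to 15.44 in vehicle titled GFP- libraries, with 0 of 20 called higher and 3 called lower in each treatment. The part of these cells in the receptor results was not tested.

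Odorant receptors are G protein-coupled receptors in the cilia of olfactory sensory neurons. A mature neuron expresses 1 receptor gene from 1 allele, so the RNA of a receptor in a sorted fraction follows the neurons that chose it. Class I receptors, the type first known from fish, sit in a single cluster around the beta-globin genes in the mouse, are expressed mostly in the dorsal zone of the epithelium, and include receptors for carboxylic acids and other water-soluble odorants. Their choice depends on the transcription factor Bcl11b and on a long-range enhancer in the cluster.

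The bases upstream of 4 receptors are shown, all from the 23 class I receptors whose RefSeq gene start is not the start codon. Among these 23, Olfr613, Olfr550 and Olfr629 had the widest sort differences, and Olfr654 had the smallest adjusted p in the interaction. Olfr677, Olfr611 and Olfr593, with wide differences described below, are not among the 23. The sequences are the 250 bases before the gene start in GRCm38.p6, read along the gene. Olfr613 lies at chr7:103550118-103550367 (plus strand), Olfr550 at chr7:102578219-102578468 (plus strand), Olfr629 at chr7:103741323-103741572 (minus strand) and Olfr654 at chr7:104587469-104587718 (plus strand). Capitals mark matches on either strand to TATAAA, the sequence of the TATA box, to TAATTA, a homeodomain core, or to TCCCNNGGG, the core bound by Ebf factors. These are matches of sequence alone, and whether any of them acts in a promoter was not tested.
Olfr613: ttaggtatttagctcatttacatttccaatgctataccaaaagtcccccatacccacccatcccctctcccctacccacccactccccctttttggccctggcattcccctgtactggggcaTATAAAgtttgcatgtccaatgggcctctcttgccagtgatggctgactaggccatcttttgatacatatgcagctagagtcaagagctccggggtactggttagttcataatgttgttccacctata
Olfr550: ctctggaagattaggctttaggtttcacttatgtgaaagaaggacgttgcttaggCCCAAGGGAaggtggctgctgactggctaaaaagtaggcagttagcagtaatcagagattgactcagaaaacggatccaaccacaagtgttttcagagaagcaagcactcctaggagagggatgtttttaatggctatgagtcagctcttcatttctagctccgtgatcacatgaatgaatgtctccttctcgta
Olfr629: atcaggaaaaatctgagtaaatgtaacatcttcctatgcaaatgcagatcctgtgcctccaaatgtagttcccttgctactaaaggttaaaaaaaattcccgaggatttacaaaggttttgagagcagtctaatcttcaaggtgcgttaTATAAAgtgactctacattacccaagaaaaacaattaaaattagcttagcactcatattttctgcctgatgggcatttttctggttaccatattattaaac
Olfr654: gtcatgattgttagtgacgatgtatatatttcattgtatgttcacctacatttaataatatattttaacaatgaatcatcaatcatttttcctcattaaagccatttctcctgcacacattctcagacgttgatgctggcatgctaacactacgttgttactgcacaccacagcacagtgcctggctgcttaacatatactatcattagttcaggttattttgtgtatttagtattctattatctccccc
The TATAAA of Olfr613 ends 123 bases before the gene start and that of Olfr629 ends 96 bases before it. Olfr550 had a TCCCNNGGG match that ends 187 bases before, and Olfr654 had none of the 3 motifs. RefSeq windows were found for 95 of the 111 receptors, but 72 of these (75.79%) begin at the start codon, so only 23 reach into upstream sequence of an annotated leader. Among the 23, TATAAA was present in 9 (39.13%), against 30.93% of 236 such windows of other odorant receptors and 11.4% of 30936 windows of all genes. TAATTA was present in 8.7% of the class I windows, 18.64% of those of other receptors and 4.43% of all windows, and TCCCNNGGG in 8.7%, 5.93% and 5.72%.

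The sort parted the class I receptors in both directions. With odor, 19 of the 111 were called higher and 44 lower in libraries titled GFP+ (limma with Benjamini-Hochberg adjustment, adjusted p below 0.05), while 48 were not called. With vehicle the counts were again 19 higher, 44 lower and 48 not called. The split depends on the scaling: with each array centred on its median, 15 were called higher and 67 lower with odor, and 18 and 57 with vehicle. Centring shifts every probe set, and the shares that follow are from the fit without it. Over all 22206 probe sets tested, 11.0% were called higher and 9.86% lower with odor, and 10.2% and 7.16% with vehicle. The 969 other odorant receptors lay nearer to the class I genes, with 22.9% called higher and 43.6% lower with odor, and 23.6% and 41.1% with vehicle. By the values themselves, 15 of the 111 class I receptors with odor and 20 with vehicle had every library titled GFP+ above every library titled GFP-. The same held for 204 and 236 of the 969 other odorant receptors, and for 10.5% and 11.3% of all probe sets. For 37 of the 111 with odor and 41 with vehicle every one lay below, against 383 and 407 of the 969 others and 11.3% and 12.0% of all probe sets. In bulk samples of this kind, fewer neurons of a receptor and less receptor RNA per neuron cannot be told apart.

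The median sort difference of the 111 was -0.71 with odor and -0.48 with vehicle, against -0.56 and -0.47 for the other odorant receptors and -0.14 and -0.13 for all probe sets. Without odor titled GFP+ replicate 2 the odor median was -0.45, and leaving out any 1 library gave -0.83 to -0.45 with odor and -0.54 to -0.33 with vehicle. Differences above 3 were found for 7 class I receptors (6.306%) with odor and 8 (7.207%) with vehicle, against 12.693% and 13.313% of the other receptors. Differences below -3 were found for 5 (4.505%) with odor and 3 (2.703%) with vehicle, against 9.185% and 7.74%. The standard deviation over the class I receptors was 1.94 with odor and 1.93 with vehicle, against 2.54 and 2.55 over the others. Whether the class I distribution differs from that of the other receptors was not tested.

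**Figure D1:**
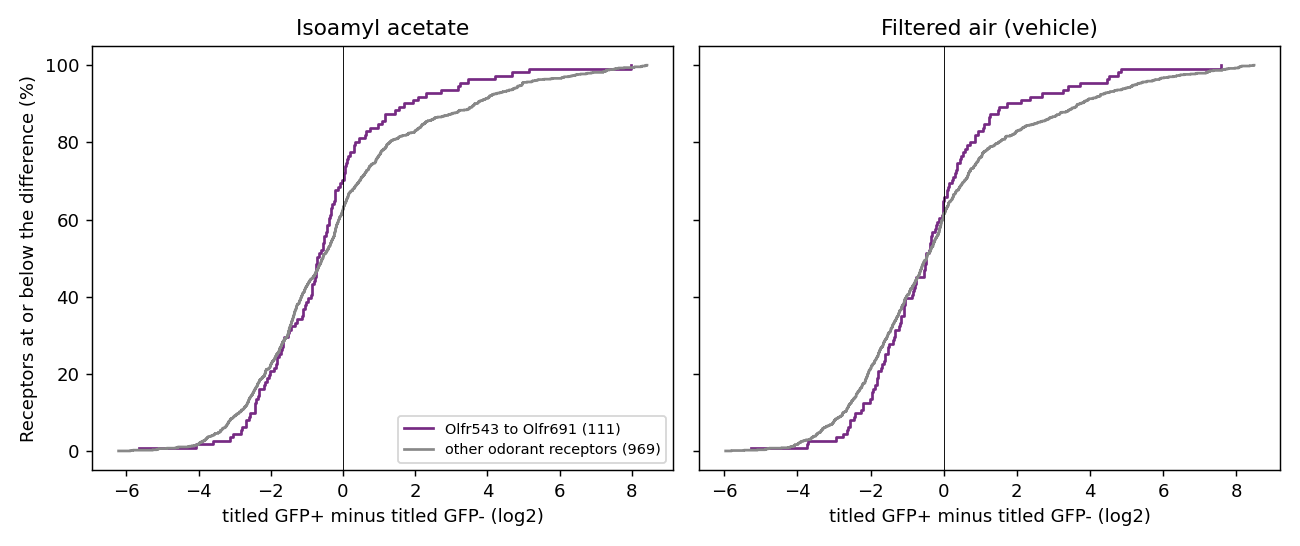
Cumulative share of receptors (percent, y axis) at or below each sort difference (titled GFP+ minus titled GFP-, log2, x axis), for the 111 class I receptors (purple) and the 969 other odorant receptors (grey), with isoamyl acetate on the left and filtered air on the right. The class I curve has shorter ends: with vehicle, 2.703% of class I and 7.74% of other receptors lie below -3, and 7.207% and 13.313% lie above 3.

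The calls were largely shared by the treatments. Of the 111, 18 were called higher in both treatments and 37 lower in both, and 0 were called in opposite directions. Olfr645 was called higher with vehicle alone and Olfr598 with odor alone, and 7 receptors in each treatment were called lower in that treatment alone, but no class I receptor was called in the interaction that tests such a difference. The sort difference had the same sign in both treatments for 100 of 111, and the differences of the 2 treatments, which used different pools of mice, correlated with r = 0.98 across the 111. These counts and the correlation are given for the class I receptors alone, and whether other receptors are shared less was not tested. Over single pools, 18 receptors (16.2%) were higher in the library titled GFP+ in 8 of 8 pools and 46 (41.4%) were lower in 8 of 8, against 24.4% and 43.1% of the other odorant receptors and 11.9% and 15.1% of all probe sets.

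Olfr677 had the widest difference among the class I receptors. It read 11.65, 12.77, 12.47 and 12.36 in odor titled GFP+ libraries, against 4.50, 4.59, 4.24 and 3.97 in odor titled GFP- libraries. In vehicle titled GFP+ libraries it read 12.43, 12.46, 12.61 and 13.01, against 4.28, 5.19, 4.71 and 6.02 in vehicle titled GFP- libraries. All 8 libraries titled GFP+ thus lay far above all 8 titled GFP-, and in odor titled GFP- none exceeded the median negative control of its array, so that the odor difference is a bound of at least 116-fold. The fitted difference was 7.99 with odor (SE 0.31, adjusted p = 1.56e-11) and 7.58 with vehicle (SE 0.31, adjusted p = 2.76e-11).

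Olfr611 read between 10.59 and 11.35 in odor titled GFP+ libraries, against 5.89 to 6.81 in odor titled GFP- libraries. Its vehicle values were 11.36, 10.31, 11.11 and 11.28 in titled GFP+ libraries, against 6.24, 6.67, 5.33 and 6.43 in titled GFP- libraries, so the groups did not overlap in either treatment. The differences were 4.67 with odor and 4.85 with vehicle (SE 0.29 each, adjusted p = 2.71e-09 and 1.99e-09). Olfr629 was above the median negative control in all 8 libraries titled GFP+, where it averaged 9.01 ± 0.24 with odor and 9.05 ± 0.34 with vehicle (SD, n = 4 each). It was above it in 0 of 8 titled GFP-, which gives bounds, against that median, of at least 11.8-fold with odor and 11.6-fold with vehicle. Its odor titled GFP+ values of 8.74 to 9.31 lay below the 95th percentile of the negative controls, which was 9.438 to 10.015 in those libraries.

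Olfr672 was steady in one fraction and variable in the other. It read 13.89, 13.98, 14.13 and 14.04 in odor titled GFP+ libraries, against 11.03, 10.99, 8.44 and 8.75 in odor titled GFP- libraries. The vehicle values were 14.14, 13.72, 13.95 and 14.19 in titled GFP+, against 9.35, 11.14, 9.57 and 8.05 in titled GFP- libraries. The SD was thus 0.10 in odor titled GFP+ and 1.40 in odor titled GFP- libraries, and the differences were 4.21 with odor and 4.48 with vehicle (SE 0.58 each, adjusted p = 3.36e-05 and 1.84e-05).

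The other members named as highest by the rule were called in both treatments and did not overlap between the sorts. Olfr632 averaged 8.80 ± 1.03 in odor titled GFP+ and 5.33 ± 0.56 in odor titled GFP- libraries, a difference of 3.46, and was above the negative control in 0 of 4 vehicle titled GFP- libraries, a bound of at least 17.9-fold. Olfr600 differed by 3.19 with odor and 3.72 with vehicle, and Olfr686 by 3.25 and 3.40. For Olfr671 the difference with odor was 2.71, and with vehicle it was at least 6.26-fold. Olfr655 differed by 1.94 with odor and 2.69 with vehicle, Olfr596 by 2.31 and 2.37, and Olfr603 by 2.07 and 2.10. Olfr586, at 1.75 with vehicle, was also higher in 8 of 8 pools. Adjusted p over these 8 receptors lay between 7.6e-10 for Olfr600 with vehicle and 0.000465 for Olfr603 with odor.

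Olfr613 had the widest difference in the other direction. It read 4.73, 3.72, 4.53 and 4.63 in odor titled GFP+ libraries, against 10.02, 9.09, 9.62 and 11.45 in odor titled GFP- libraries. The vehicle values were 5.06, 5.01, 4.63 and 5.12 in titled GFP+, against 10.30, 8.91, 11.08 and 10.57 in titled GFP- libraries. It exceeded the median negative control in 0 of 8 libraries titled GFP+ and in 8 of 8 titled GFP-. The bounds were at least 25.8-fold lower with odor (adjusted p = 5.82e-08) and at least 31.3-fold lower with vehicle (adjusted p = 1.42e-07).

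Olfr550 averaged 8.09 ± 0.83 in odor titled GFP+ and 11.69 ± 0.63 in odor titled GFP- libraries, and the vehicle groups did not overlap either (SD, n = 4 each). Its differences of -3.59 with odor and -3.73 with vehicle (SE 0.53 each) had adjusted p = 6.37e-05 and 4.51e-05. Olfr593 read 6.55, 7.19, 7.61 and 7.96 in odor titled GFP+ libraries, against 11.32, 10.57, 11.44 and 12.30 in odor titled GFP- libraries, and its vehicle groups were as far apart. It differed by -4.08 with odor and -3.71 with vehicle (SE 0.40 each, adjusted p = 7.09e-07 and 2.29e-06).

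Of the other receptors named as lowest, Olfr644 differed by -3.13 with odor and -2.76 with vehicle, Olfr571 by -2.59 and -2.66, and Olfr618 by -2.82 and -2.63. Olfr649 differed by -2.81 with odor and -2.56 with vehicle, Olfr608 by -2.69 and -2.56, and Olfr556 by -2.45 and -2.46. All of these were lower in 8 of 8 pools, with no overlap in either treatment. Olfr633 and Olfr557 were also lower in 8 of 8 pools, but their odor groups overlapped: Olfr633 read 6.47, 5.53, 8.84 and 8.41 in odor titled GFP+ libraries, against 9.87, 8.78, 11.30 and 11.46 in odor titled GFP- libraries. Olfr635, Olfr654 and Olfr651 joined the list with odor, at -2.70, -2.57 and -2.44, and were called lower with vehicle too, with -1.48 for Olfr654 and -2.20 for Olfr651. Olfr619 was not above the negative control in any library titled GFP+, and its bound was at least 1.55-fold lower with odor and 1.63-fold with vehicle.

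**Figure D2:**
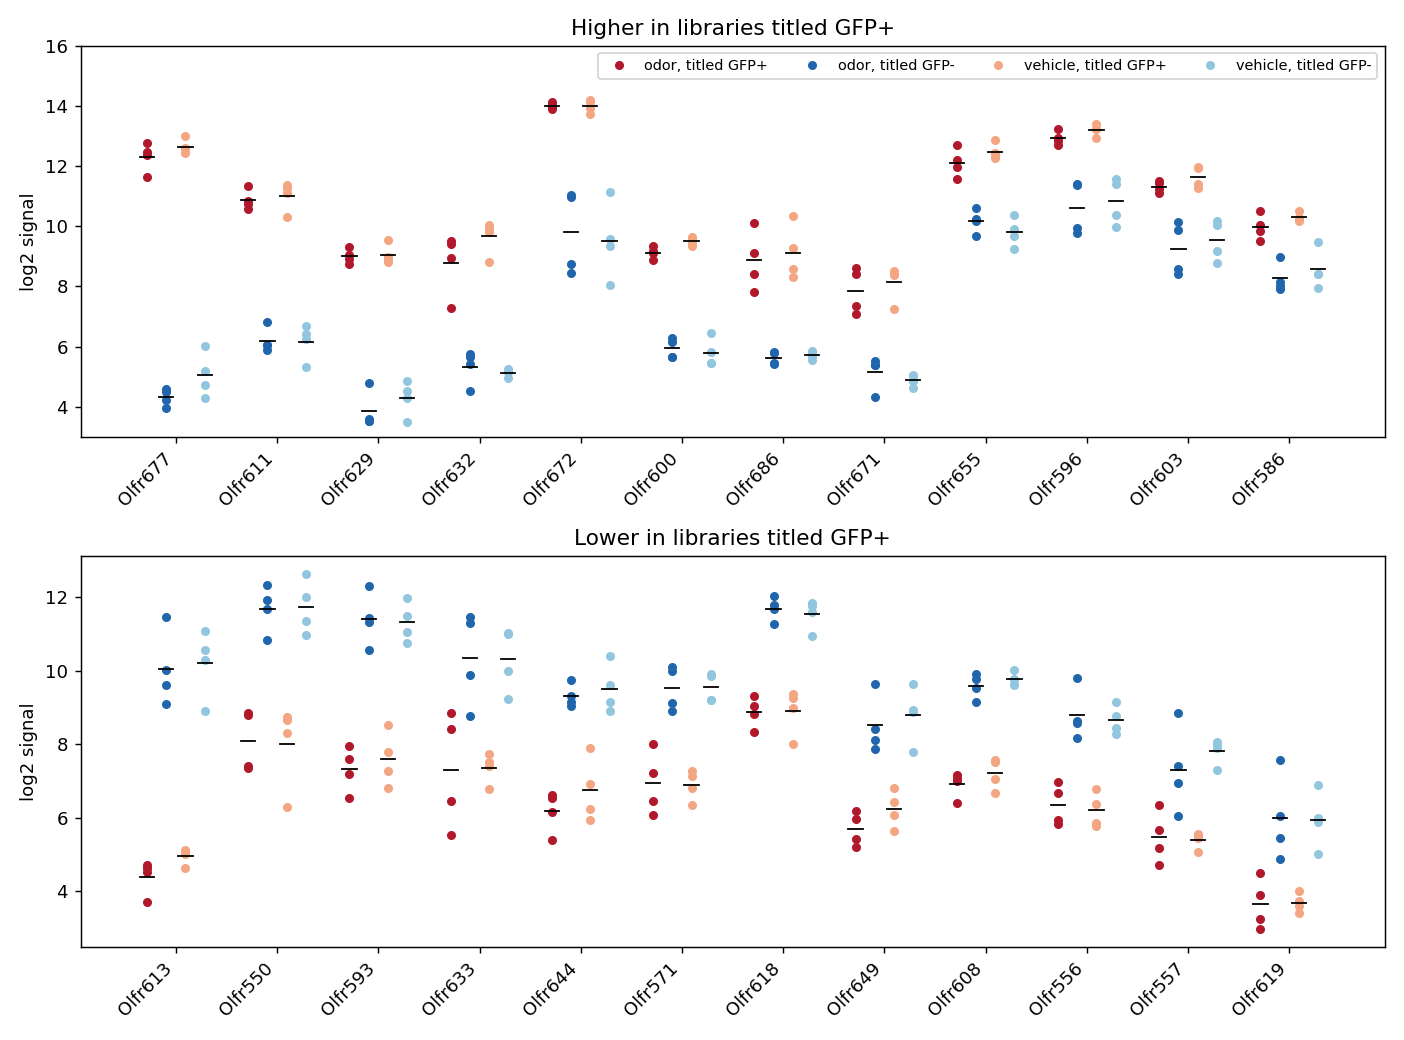
Log2 signal (y axis) of the 24 class I receptors named for their sort difference, 12 higher (top) and 12 lower (bottom) in libraries titled GFP+, in each of the 16 libraries; points are libraries and black bars group means of 4. Olfr677 and Olfr613 have the widest gaps, and Olfr672 scatters in titled GFP- libraries only.

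Of the 6 class I receptors with the highest mean signal, some were called in neither treatment and others were called. Olfr549 averaged 12.97 ± 0.47 in odor titled GFP+ and 12.78 ± 0.48 in odor titled GFP- libraries, against 13.25 ± 0.23 and 12.60 ± 0.34 in the vehicle ones, and was not called (adjusted p = 0.63 with odor and 0.0945 with vehicle). Its vehicle groups did not overlap, with 13.00 to 13.50 in titled GFP+ against 12.23 to 12.94 in titled GFP- libraries. Olfr552 and Olfr679, at differences of 0.15 and -0.23 with odor and 0.45 and -0.40 with vehicle, were not called either. Olfr681 and Olfr652 were called higher in both treatments, by 1.45 and 1.17 with odor and by 1.51 and 1.25 with vehicle. Olfr598 was called higher with odor, by 0.97 (adjusted p = 0.0237), and not with vehicle, at 0.73 (adjusted p = 0.0958). Signals of different probe sets carry different probe affinities, so no order of receptors by level is drawn.

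Of the 111 receptors, 95 were above the median negative control in all 4 libraries of at least 1 group, and 10 were above it in no library at all: Olfr543, Olfr547, Olfr555, Olfr564, Olfr568, Olfr574, Olfr577, Olfr631, Olfr642 and Olfr688. The number above it in all 4 libraries was 80 in odor titled GFP+ and 88 in odor titled GFP-, against 89 in vehicle titled GFP+ libraries and 88 in vehicle titled GFP- ones. Many negative controls exceed their own median, and only 19 to 44 of the 111 exceeded the 95th percentile of the negative controls in a single library. Some calls rest on signals not above the median negative control. In 4 of the 63 calls with odor and 2 of the 63 with vehicle, neither sort was above the negative control in any library, so no fold is given for these. Olfr568, with group means between 3.23 and 3.28, and Olfr555, between 3.16 and 3.62, stayed at this floor throughout.

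Along the cluster, receptors called in opposite directions lay next to each other at several places. In RefSeq order, the longest runs of receptors called lower in both treatments were Olfr616 to Olfr619 and Olfr646 to Olfr651, with 4 receptors each, and Olfr591 to Olfr593 with 3. Runs called higher in both treatments were at most 2 long, as in Olfr671 and Olfr672, which lie close to Olfr677. Of receptors called lower in both, 14 were followed by another called lower, 9 by one called higher and 13 by one not called in both. Of those called higher in both, 3 were followed by another called higher, 5 by one called lower and 10 by one not called in both. Among all 111 class I receptors, 37 were called lower in both and 18 higher in both. Whether the runs and neighbours depart from what these shares alone would give was not tested. Olfr633, called lower, directly follows Olfr632, called higher, and Olfr613 lies 2 places after Olfr611. The 23 receptors at the start of the cluster, Olfr543 to Olfr572, held 0 called higher in either treatment, and 7 called lower with odor and 6 with vehicle. Olfr545, which lies in this stretch, was called higher in both treatments with the pool as a block, so the count of 0 does not hold in that fit. The 22 at its end, Olfr665 to Olfr691, held 7 called higher and 7 lower with odor, and 7 and 9 with vehicle.

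**Figure D3:**
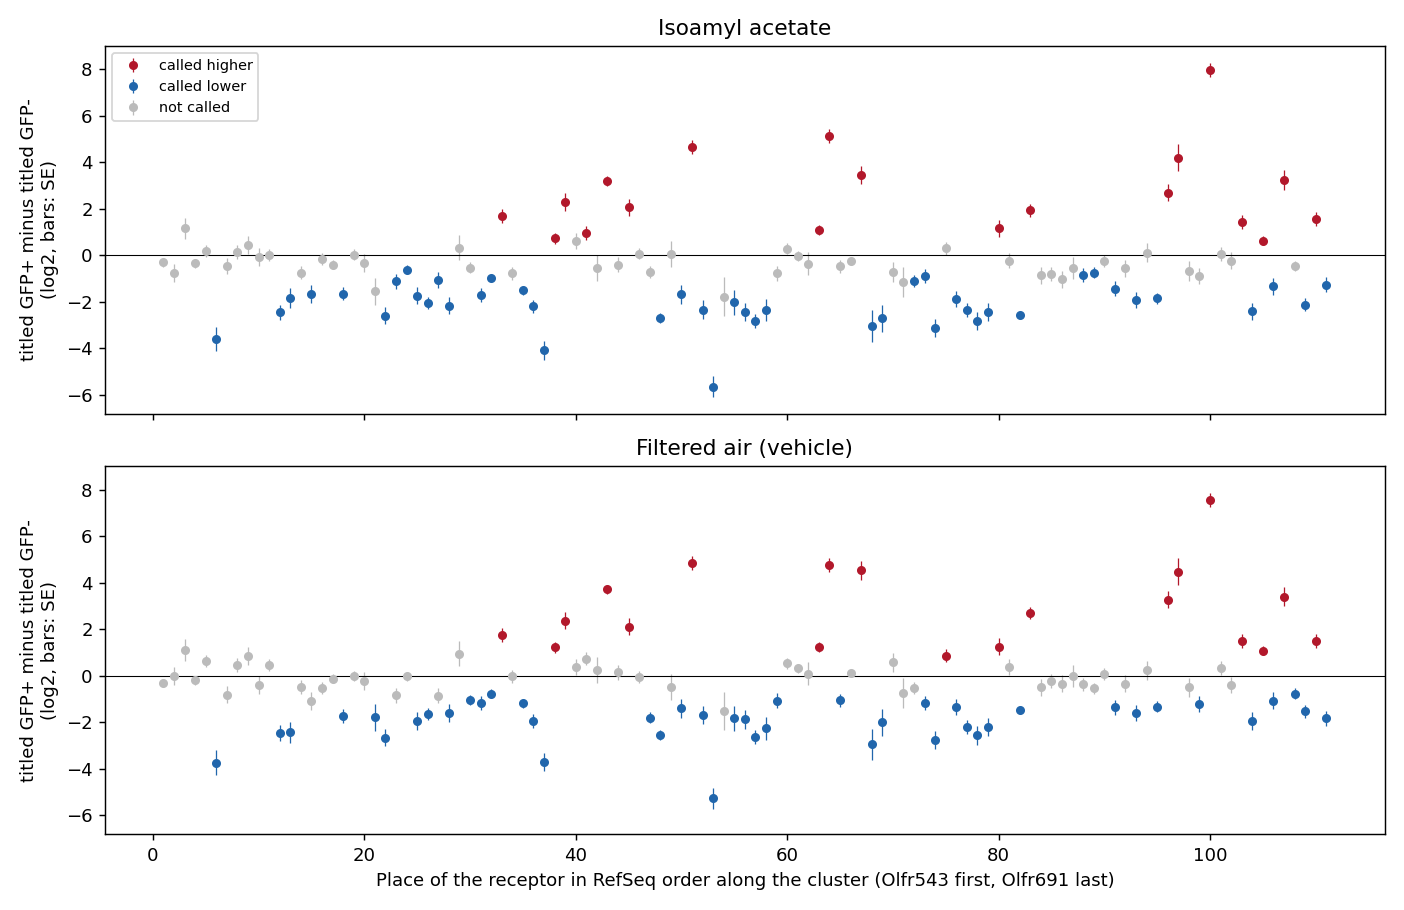
Sort difference (titled GFP+ minus titled GFP-, log2, y axis; bars are SE) of the 111 class I receptors by their place in RefSeq order along chromosome 7 (x axis), with isoamyl acetate above and filtered air below; red is called higher, blue called lower and grey not called. The first 23 places hold no red point in either panel, although Olfr545 among them was called higher in both treatments with the pool as a block.

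The same cluster holds the receptors that flank the beta-globin genes, whose numbers lie outside the range. Olfr69 averaged 13.30 in odor titled GFP+ and 6.43 in odor titled GFP- libraries, a difference of 6.87, and differed by 6.45 with vehicle. Olfr68 differed by 5.25 with odor and 5.44 with vehicle. Olfr66 was called lower in both treatments, by -1.04 with odor and -1.21 with vehicle, and Olfr64 with vehicle alone at -1.16, while Olfr65 and Olfr67 were called in neither.

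Of the 5 receptors named for a published role, Olfr690 and Olfr691 were called in both treatments, and Olfr544, Olfr545 and Olfr558 in neither. Olfr544, a receptor for azelaic acid, read 7.19, 7.39, 8.66 and 8.63 in odor titled GFP+ libraries, against values between 7.96 and 9.44 in odor titled GFP- libraries. Its vehicle values were 8.74, 7.56, 8.98 and 8.72 in titled GFP+, against 8.71, 7.82, 8.98 and 8.56 in titled GFP- libraries, where the groups overlap throughout. The difference was -0.76 with odor (SE 0.40, adjusted p = 0.198) and -0.01 with vehicle (adjusted p = 0.986), and with the pool as a block the odor difference was called (adjusted p = 0.00222). It was also called with arrays centred on their median, at -1.12 (adjusted p = 0.0227). Olfr545, known as S50 and also a carboxylic acid receptor, was higher in the library titled GFP+ in 8 of 8 pools. Its differences of 1.17 with odor and 1.10 with vehicle (SE 0.46 each) missed the threshold at adjusted p = 0.086 and 0.118, and passed it with the pool as a block (adjusted p = 0.00168 and 0.00269). Without odor titled GFP+ replicate 2 the odor difference was 1.59 and was called as well (adjusted p = 0.0149). Centring on mature neuron markers (1.49, adjusted p = 0.0257) and numbers 3 and 4 alone (1.56, adjusted p = 0.0184) also gave an odor call.

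Olfr558, the mouse counterpart of human OR51E1 and a receptor for short-chain fatty acids, averaged 6.13 ± 0.43 in odor titled GFP+ and 6.86 ± 0.40 in odor titled GFP- libraries, against 6.21 ± 0.63 and 6.70 ± 0.33 in the vehicle ones (SD, n = 4 each). It was not called at -0.74 with odor and -0.48 with vehicle (adjusted p = 0.0872 and 0.286). Centring each array on its median moved these to -1.10 and -0.86, both called (adjusted p = 0.00486 and 0.0188). Without vehicle titled GFP+ replicate 2, which changes only the shared spread, the odor difference was called (adjusted p = 0.0469). At the end of the range, Olfr690 was called higher, by 1.56 with odor (adjusted p = 0.000825; 0.00131 with vehicle), and its neighbour Olfr691 lower, at -1.26 with odor and -1.83 with vehicle. With only replicate numbers 3 and 4, Olfr691 differed by -0.62 with odor and was not called (adjusted p = 0.424).

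Genes that act on receptor choice and transport moved little between the sorts. Of 24 such genes measured, 1 was called higher and 0 lower in each treatment, Lbr, an inner nuclear membrane protein that is lost as olfactory neurons gather their receptor genes into heterochromatin foci, at 1.62 with odor and 1.49 with vehicle. Bcl11b differed by 0.07 with odor and -0.23 with vehicle and was not called (adjusted p = 0.83 and 0.47). Lhx2 and Ldb1, which bind receptor enhancers, and Rtp1 and Rtp2, which bring receptors to the membrane, were not called. Of 17 transduction genes, 1 was called higher and 4 lower with odor, and 1 and 3 with vehicle. Neither the 4 dorsal markers, Nqo1 among them, nor the 3 ventral ones held a called gene in either sort comparison, with medians of -0.13 and -0.32 with odor and 0.08 and -0.30 with vehicle.

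Isoamyl acetate moved no class I receptor past the threshold. In libraries titled GFP-, 0 of 111 were called (limma with Benjamini-Hochberg adjustment), against 0.018% of all probe sets called higher and 0.0% lower, and 2 were higher and 1 lower at an unadjusted p below 0.05, against 1.72% and 1.58%. In libraries titled GFP+, 0 of 111 were called, against 0.00901% called higher and 0.0% lower, and 1 was higher and 8 lower at an unadjusted p below 0.05, against 2.41% each. The interaction called 0 of 111, against 0.0% higher and 0.0045% lower of all, with 1 higher and 3 lower unadjusted, against 1.71% and 1.23%. An odor change had a median SE of 0.32 over the class I receptors, so a change within about 0.68 of the estimate (95% interval) could not be told from it, and a p that misses the threshold does not show that a receptor kept its level.

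The median odor change was -0.02 in libraries titled GFP-, against -0.09 for the other odorant receptors. In libraries titled GFP+ it was -0.21, against -0.19 for the other receptors and -0.01 for all probe sets. There 88 of 111 (79.3%) lay below 0, against 73.0% of the other receptors and 52.0% of all probe sets. Of the other receptors, 7.33% were lower and 1.14% higher at an unadjusted p below 0.05. The mean over the 111 was 7.54, 7.40, 8.09 and 8.22 in odor titled GFP+ libraries, against 8.12, 7.64, 8.15 and 8.25 in vehicle titled GFP+ libraries. The libraries numbered 1 and 2 of the odor group were thus the low ones, and the groups overlapped. Set against the vehicle library of the same number, the odor library had the lower mean in 4 of 4 numbers, and same-numbered libraries titled GFP+ deviated together (r between 0.174 and 0.278 across probe sets). The size of the median of -0.21 changed with single libraries, but it stayed below 0 whichever library was left out (-0.37 to -0.11). It was -0.12 without odor titled GFP+ replicate 1, -0.11 without replicate 2, -0.32 without replicate 3, -0.33 without replicate 4 and -0.37 without vehicle titled GFP+ replicate 2. In the interaction 82 of 111 (73.9%) lay below 0, against 57.1% of the other receptors and 52.8% of all probe sets. The interaction had a median of -0.25, against -0.08 for the other receptors and -0.02 for all probe sets. That median was -0.16 without odor titled GFP+ replicate 1, -0.10 without replicate 2, -0.40 without replicate 4, and -0.14 without odor titled GFP- replicate 4. It was -0.41 without vehicle titled GFP+ replicate 2 and -0.12 without replicate 4. The mature neuron markers had a median odor change of -0.09 in libraries titled GFP+ as well.

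**Figure D4:**
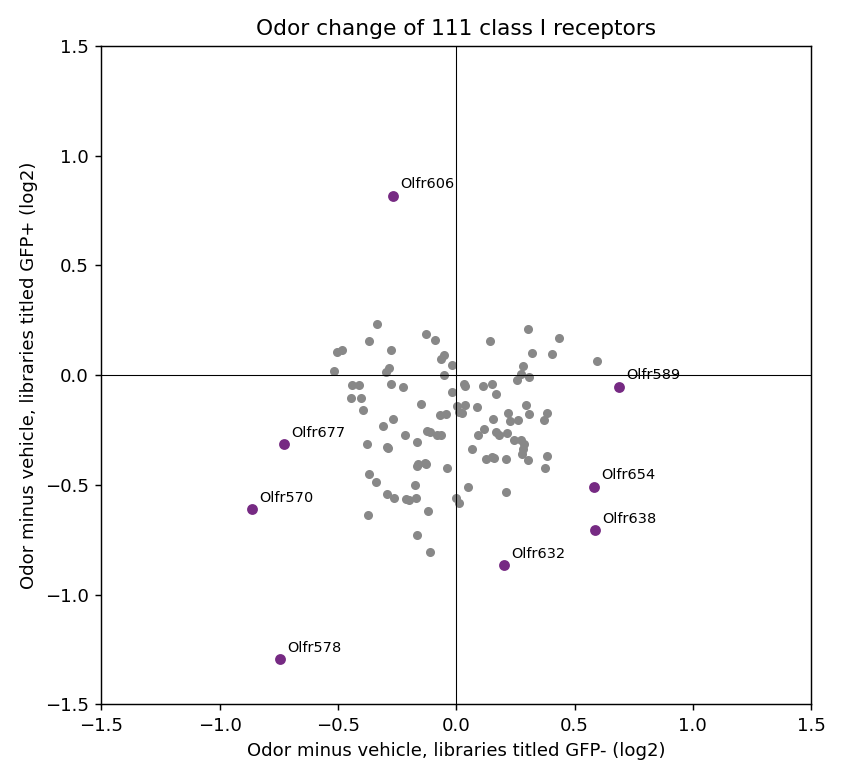
Odor change (isoamyl acetate minus filtered air, log2) of the 111 class I receptors in libraries titled GFP- (x axis) and titled GFP+ (y axis); purple points are those labelled by name. No point was called, most lie below 0 on the y axis (79.3%, against 73.0% of the other receptors), and the receptors show no common line (r = 0.0872 over 111).

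Olfr654 had the smallest adjusted p in the interaction. In libraries titled GFP- it read 10.67, 10.85, 10.89 and 10.75 with odor, against 10.06, 10.35, 10.17 and 10.26 with vehicle. In libraries titled GFP+ it read 8.22, 7.95, 8.39 and 8.33 with odor, against 9.14, 8.34, 8.52 and 8.93 with vehicle. It was thus higher with odor in every library titled GFP-, without overlap, and lower on average in those titled GFP+, where the groups overlap slightly. The changes were 0.58 and -0.51 (SE 0.16 each), and the interaction was -1.09 (SE 0.23), with adjusted p-values of 1, 0.968 and 0.596 in limma's fit across all genes.

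Olfr578 had the most negative odor change in libraries titled GFP+. It read 7.80, 6.95, 7.81 and 9.26 in odor titled GFP+, against 8.87, 8.84, 10.27 and 9.02 in vehicle titled GFP+ libraries, a change of -1.29 (SE 0.38, adjusted p = 0.968). In libraries titled GFP- it read 10.36, 10.01, 9.96 and 10.13 with odor, against 10.87, 11.16, 10.85 and 10.56 with vehicle, a change of -0.74 without overlap (adjusted p = 1). Both changes have the same sign and neither passed the threshold.

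Other values among the most positive or most negative were likewise uncalled. Olfr606 had the most positive change in libraries titled GFP+, 0.82, but none of those 8 libraries exceeded the negative control. Olfr632 changed by -0.87 and Olfr635 by -0.81 in libraries titled GFP+, and Olfr632 read 9.42, 7.30, 9.52 and 8.95 with odor, against 10.06, 8.82, 9.82 and 9.96 with vehicle. Both rest largely on odor titled GFP+ replicate 2, without which they were -0.37 for Olfr632 and -0.19 for Olfr635. Leaving out any 1 library gave -1.15 to -0.37 for Olfr632 and -1.33 to -0.19 for Olfr635. In libraries titled GFP-, Olfr659 changed by 0.60 (0.25 to 0.78 with 1 library left out), Olfr638 by 0.59 (0.33 to 0.86) and Olfr570 by -0.86 (-1.26 to -0.29). Olfr589 changed by 0.69 there but exceeded the negative control in only 3 of 4 odor and 1 of 4 vehicle libraries. Olfr677 was likewise among the most negative, but it exceeded the control in 0 of 4 odor and 1 of 4 vehicle libraries, so no size is given. Olfr638 had the most negative interaction, -1.29 (SE 0.60, adjusted p = 1).

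The spread within a group was uneven over the class I receptors. The median within-group SD was 0.52, and the highest were 1.37 for Olfr615, 1.12 for Olfr633 and 1.05 for Olfr640. Olfr615 read 5.76, 4.65, 8.22 and 6.98 in odor titled GFP+ and 7.48, 6.60, 8.95 and 9.69 in odor titled GFP- libraries, in the order of replicate numbers 1 to 4. With vehicle it read 7.41, 5.42, 8.86 and 6.46 in titled GFP+ and 8.22, 7.61, 10.03 and 8.35 in titled GFP- libraries. The library numbered 2 was the lowest of its group each time, and Olfr615 was lower in the library titled GFP+ in 8 of 8 pools although neither sort difference was called.

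Olfr582 read 10.28, 12.10, 9.57 and 9.55 in odor titled GFP- and 10.56, 11.65, 9.43 and 8.75 in vehicle titled GFP- libraries, while its libraries titled GFP+ stayed between 10.37 and 11.20. Numbers 1 and 2 were thus the higher ones in both treatments, as for Olfr672 with odor. Eif2s3y, a gene of the Y chromosome, read between 9.61 and 10.55 in libraries numbered 1 or 2 and between 2.53 and 3.49 in those numbered 3 or 4, in all 4 groups. Uty and Kdm5d, also on the Y chromosome, split the numbers in the same way. The pools numbered 1 and 2 thus held male mice, and in numbers 3 and 4 none of these genes exceeded the median negative control. The labels used here do not state the sex of the mice in each pool. All 4 groups held both kinds of pool, and the main fit had no term for sex. The part of sex in these receptors was not tested. Within numbers 1 and 2 alone, 13 class I receptors were called higher and 46 lower with odor, and 16 and 37 with vehicle. Within numbers 3 and 4, 21 and 30 were called with odor, and 19 and 32 with vehicle. Shares over all probe sets are not given for these fits. Olfr615, Olfr582 and Olfr640 were picked for their spread after their values were seen.

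**Figure D5:**
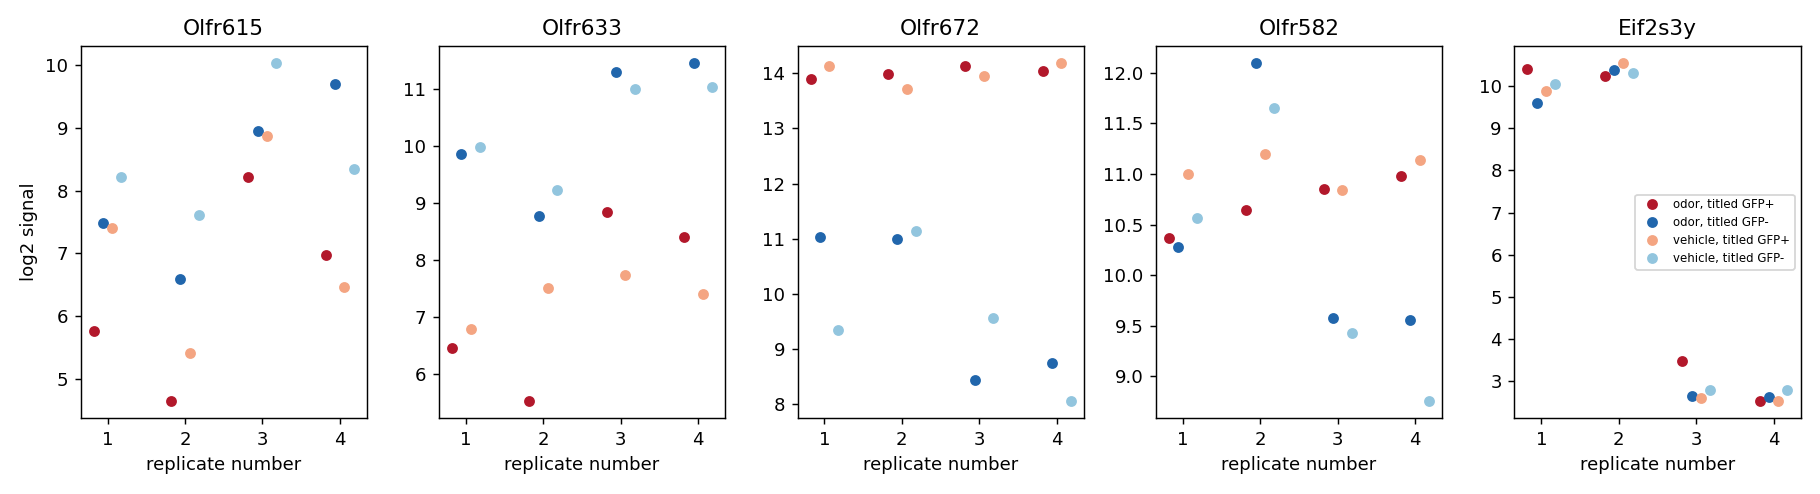
Log2 signal (y axis) of Olfr615, Olfr633, Olfr672, Olfr582 and the Y-linked Eif2s3y by the replicate number in the title (x axis), 1 point per library, coloured by group. Eif2s3y lies above 9 in numbers 1 and 2 and below 4 in numbers 3 and 4, and Olfr582 reaches 12.10 in number 2 of odor titled GFP-.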

How the data were processed

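RNA of 16 sorted libraries was hybridised to Clariom S mouse arrays. The values the authors deposited are log2 signals per probe set. They come from Affymetrix Expression Console according to the submitters' processing notes, with version, background correction and normalization not given in these sources. Values run from 1.68 to 19.33. Of 28846 probe sets, 6640 controls (5222 negative controls) were left out, and 22206 were tested. Symbols came from the platform annotation, and gene order and upstream sequences from RefSeq tables of GRCm38.p6.

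Groups follow the titles. limma (3.58.1, R 4.3.3) fitted 4 group means to all 16 arrays, with eBayes, 12 residual degrees of freedom and Benjamini-Hochberg adjustment over 22206 tests at 0.05. The number of arrays limits the precision. Both libraries of a pool come from the same 3 mice, and their deviations correlated in every pool (r between 0.158 and 0.399), so the pool served as a block in an alternative fit. A probe set was taken as above background when it exceeded the median negative control of its array. Where a called receptor was above it in no library of 1 sort, the difference is given as a bound: that sort's values were set to the negative control median. Such a bound holds for that floor only, since many negative controls exceed their median. Their 95th percentile lay between 9.393 and 10.092 over the arrays, and a floor there would give smaller bounds. The alternatives were other normalizations, filters on dim probe sets, array weights, another prior, each library left out, and, added after seeing the data, fits within replicate numbers 1 and 2 or 3 and 4. The fit was tested on simulated data.

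The receptors, gene lists and tests were chosen with earlier results of these data known. Receptors named are, in each sort difference, up to 12 called each way with groups that do not overlap, in each odor change and the interaction the 4 most positive and 4 most negative, the 6 with the highest and 3 with the lowest mean signal, and those with a published role. Lists share members with cells beyond their names. Near-identical receptors may share probe signal, and no comparison of receptor sequences with each other was made.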

Additional observations from a re-analysis of the deposited data

Results flagged for a closer look

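Among the 53 class I receptors named, 212 groups of 4 libraries were examined for a library far from the other 3 of its group, and 9 were found (Dixon's 95% criterion). Chance alone would mark about 1 in 20 such groups. In odor titled GFP- libraries, Olfr568 read 3.64 in replicate 4 (others 3.04 to 3.13), Olfr609 read 7.67 in replicate 2 (others 9.88 to 10.08), Olfr629 read 4.80 in replicate 2 (others 3.51 to 3.58) and Olfr671 read 4.33 in replicate 2 (others 5.38 to 5.51). In vehicle titled GFP- libraries, Olfr570 read 7.88 in replicate 2 (others 9.14 to 9.37). In vehicle titled GFP+ libraries, Olfr578 read 10.27 in replicate 3 (others 8.84 to 9.02), Olfr630 read 4.45 in replicate 4 (others 5.03 to 5.13), Olfr651 read 8.22 in replicate 4 (others 6.86 to 6.95) and Olfr671 read 7.25 in replicate 2 (others 8.39 to 8.53).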

How the results depend on the processing

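The count of class I receptors called in the odor changes and the interaction was 0 under every alternative run. For the sort differences, a filter at the 95th percentile of the negative controls kept 36 of the 111 receptors, of which 11 were called higher and 16 lower with odor, and 10 and 13 with vehicle. Centring arrays on their median, which shifts all sort differences since the median over all probe sets was -0.14 with odor and -0.13 with vehicle and the deposited arrays have unequal medians, gave 15 higher and 67 lower with odor, and 18 and 57 with vehicle. Centring on mature neuron markers gave 21 and 37 with odor, and 23 and 35 with vehicle. Leaving out 1 library at a time gave 15 to 19 higher and 39 to 49 lower with odor, and 17 to 20 and 36 to 45 with vehicle. With the pool as a replicate block, 18 were called higher and 51 lower with odor, and 20 and 47 with vehicle. Among the sort differences and interactions for which receptors were named, no call changed with this block other than those of Olfr544 and Olfr545. Sort differences of receptors named for another reason, such as an odor change or their signal, were not compared in this way, save those with a published role. The replicate numbers also deviate together over odor and vehicle within a titled sort, and with them as a block 0 receptors were called for odor. The counts under these alternatives are given for the class I receptors alone, without the shares over all probe sets in the same fits.

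Signs turned only where nothing was called. Olfr544 differed by 0.041 between the sorts with vehicle under array weights, 0.217 with marker centring, 0.086 within numbers 3 and 4, and by positive values without vehicle titled GFP- replicate 1 (0.051), replicate 3 (0.14) or vehicle titled GFP+ replicate 2 (0.299), within a range of -0.246 to 0.299. The odor change of Olfr609 in libraries titled GFP- became 0.048 within numbers 3 and 4 and 0.053 without odor titled GFP- replicate 2 (range over libraries left out -0.767 to 0.053). In libraries titled GFP+, that of Olfr657 became 0.047 within numbers 3 and 4, that of Olfr688 -0.024 without vehicle titled GFP+ replicate 2 (range -0.024 to 0.345), that of Olfr666 -0.094 within numbers 1 and 2 and -0.101 without odor titled GFP+ replicate 4 (range -0.101 to 0.467), and that of Olfr691 -0.201 within numbers 1 and 2. The interaction became -0.025 for Olfr691 and -0.091 for Olfr630 within numbers 1 and 2. Within numbers 1 and 2, Olfr619 and Olfr586 with vehicle and Olfr690 with odor kept their sign and were not called. The cause was not tested. Signals near the negative controls limit what can be said of the dimmest receptors. Groups by protein identity were not run.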

Other observations

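Between the class I receptors lie 20 measured genes that are no receptors, and some of them were called in the sort. Trim12a, Trim12c, Trim30a, Trim30b and Trim30d, RING-finger proteins of a family with roles in antiviral defence, were called higher in libraries titled GFP+ in both treatments. These are 5 of the 20, against 11.0% of all probe sets called higher with odor and 10.2% with vehicle. Trim12a averaged 8.62 in odor titled GFP+ and 6.04 in odor titled GFP- libraries, and 8.45 in vehicle titled GFP+, against 5.73 in vehicle titled GFP- libraries. The differences were 2.59 with odor and 2.72 with vehicle. The other 4 exceeded the median negative control in no library titled GFP-, so their differences are bounds. Trim12c was at least 1.69-fold higher with odor and 1.6-fold with vehicle, and Trim30a at least 1.31-fold and 1.23-fold. Trim30d was at least 1.12-fold higher with odor, while for Trim30d with vehicle and Trim30b in both treatments the bound gave no fold above 1. The neutrophil and macrophage markers moved with them, at a median difference of 6.88 with odor and 6.92 with vehicle, and their part was not tested. In each treatment 1 of the 20 was called lower, against 9.86% of all probe sets with odor and 7.16% with vehicle. It was Ubqlnl with odor (-0.395, adjusted p = 0.0478) and Olfm5 with vehicle (-0.554, adjusted p = 0.043). Both exceeded the median negative control in no library. The embryonic globin genes Hbb-bh1 and Hbb-y, which sit inside the cluster, were not called in either treatment. With isoamyl acetate, 0 of the 20 genes were called in either titled sort.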
